A study of Mus musculus with 30 samples.

Results

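CD11b+ cells recovered from 2 kinds of transplanted C57BL/6 tumor, EL-4 and MCA203, were set directly against each other. The members are the 3 arrays titled as tumor EL-4 replicates 1 to 3 and the 3 titled as tumor MCA203 replicates 1 to 3, which is 6 of the 30 arrays and 2 of the 10 groups in the series. EL-4 is a T cell lymphoma line and MCA203 a chemically induced fibrosarcoma line, both of C57BL/6 origin. The mice of both groups carried a growing tumor, and the labels name no other treatment, allele or time. CD11b+ cells were enriched immunomagnetically from the tumor infiltrate, total RNA was extracted, and biotin-labelled cRNA was hybridised to Affymetrix MOE430 2.0 arrays. The tumor site, the age and sex of the mice, the purity of the fraction and the number of mice behind an array are not given in the sources used here, so p-values measure the spread between arrays, which may be partly technical. Both groups come from 1 strain, so strain does not separate them. Both are tumor infiltrates, but a difference in tumor site or surrounding tissue cannot be told apart from the kind of tumor. Healthy C57BL/6 spleen is used below only to place a level. Where a transcript was lower in 1 infiltrate, fewer cells of a type and less RNA per cell cannot be told apart.

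CD11b, the integrin alpha M chain encoded by Itgam, marks neutrophils, monocytes, macrophages and some dendritic and natural killer cells. Among the CD11b+ cells of tumor-bearing mice are myeloid-derived suppressor cells, immature myeloid cells that restrain T cells by consuming arginine and tryptophan, by making nitric oxide and by releasing inhibitory cytokines. In a tumor these cells mature into macrophages, which may turn towards interferon-driven programmes or towards the programme induced by interleukin 4, known as alternative activation.

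The 6 arrays had medians between 4.91 and 4.98 on the log2 scale. Correlations over all genes ran from 0.983 to 0.993 within EL-4, from 0.989 to 0.993 within MCA203 and from 0.953 to 0.975 between the groups. EL-4 replicate 1 stood apart from the other EL-4 arrays through keratins and secretory epithelial transcripts, described at the end, and MCA203 replicate 3 had the narrowest spread of values, with an interquartile range of 3.01 against 3.23 to 3.47 on the other arrays. Where leaving out either array moved a called difference by over 1.5 times, its value without that array is given beside it. Itgam read 9.31, 10.07 and 9.58 on the EL-4 arrays and 10.52, 10.01 and 10.38 on the MCA203 arrays. These values overlapped, and the difference of -0.65 ± 0.40 had an adjusted p of 0.302. Of 10 genes of CD11b+ leukocyte identity, 8 did not pass the test, Csf2rb, the shared beta receptor chain for GM-CSF, interleukin 3 and interleukin 5, was higher in EL-4 by 1.02 ± 0.12, and Cd33, an inhibitory lectin of myeloid cells, was lower by -1.69 ± 0.29. The call on Csf2rb ended without EL-4 replicate 1 (0.96), without MCA203 replicate 1 (0.99), without MCA203 replicate 3 (0.98) and with centring on housekeeping genes (0.94). Xist, the X-inactivation transcript, stood at 10.24 ± 0.12 (SD, n = 3) in EL-4 and 10.59 ± 0.16 in MCA203, and the Y-linked Eif2s3y at 2.44 ± 0.21 and 2.39 ± 0.08, with neither difference past the test.

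All differences below are EL-4 minus MCA203 on the log2 scale, so that a positive value means more in the lymphoma infiltrate and 1 unit is a 2-fold change. Each is given with the standard error from limma's linear model, and each adjusted p is limma's with Benjamini-Hochberg adjustment over 18194 genes. A gene was called where the adjusted p was under 0.05 and the difference at least 1. Under that rule 961 genes (5.28%) were called, 706 (3.88%) higher in EL-4 and 255 (1.40%) higher in MCA203. The 3 values of one group lay wholly on one side of the other group's in 926 of the 961, and in 45.3% of all genes tested (18.4% with EL-4 above and 26.8% with MCA203 above). The excess of calls on the EL-4 side, 73.5% of the total, became 63.6% when arrays were centred on 8 housekeeping genes and 67.8% without MCA203 replicate 3. Without EL-4 replicate 1, 149 of the calls were lost, 120 of them higher in EL-4. The median difference over all genes was -0.08.

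The leading named genes were drawn from calls whose groups did not overlap. Among them the 12 largest differences towards EL-4 ran from 5.65 to 4.26. Mycn, a MYC family transcription factor, read 11.38, 12.87 and 11.94 in EL-4 and 6.36, 6.39 and 6.50 in MCA203, a difference of 5.65 ± 0.29 (adjusted p 1.94e-13). That value comes from 1 of 3 probe sets, and the other two gave 0.02 and 0.17, so the gene-level difference is uncertain. Cd5l, a secreted protein of tissue macrophages, read 10.06, 10.77 and 11.26 against 5.34, 5.25 and 5.44, and the difference was 5.36 ± 0.33 (adjusted p 5.86e-12). The groups were far apart, with no EL-4 array within 4 units of an MCA203 array. Gpnmb, a transmembrane glycoprotein of lipid-laden macrophages, read 11.56, 11.97 and 11.50 against 6.42, 6.96 and 6.43 (5.07 ± 0.27, adjusted p 7.01e-13). Atp6v0d2, a subunit of the proton pump that acidifies lysosomes, read 10.32, 10.95 and 10.28 against 5.58, 5.35 and 5.09 (5.18 ± 0.49). Lyve1, a hyaluronan receptor of lymphatic endothelium and of some resident macrophages, read 8.80, 11.47 and 10.25 against 5.59, 5.06 and 4.44 (5.14 ± 0.41). Lyve1 varied more among the EL-4 arrays than Gpnmb did. The remaining leaders were the antibody genes Jchain (5.06 ± 0.41), Igkv8-30 (4.94 ± 0.33) and Igkv9-120 (4.71 ± 0.34), the B cell coactivator Pou2af1 (4.60 ± 0.28), the zinc importer Slc39a4 (4.73 ± 0.32), the haemoglobin scavenger receptor Cd163 (4.36 ± 0.44) and the endothelin receptor Ednrb (4.26 ± 0.39). Igkv8-30 and Igkv9-120 were each read by a probe set prone to cross-hybridisation. Igkv8-30 had no other probe set, and the others of Igkv9-120 gave -0.53 and 0.90.

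**Figure D1:**
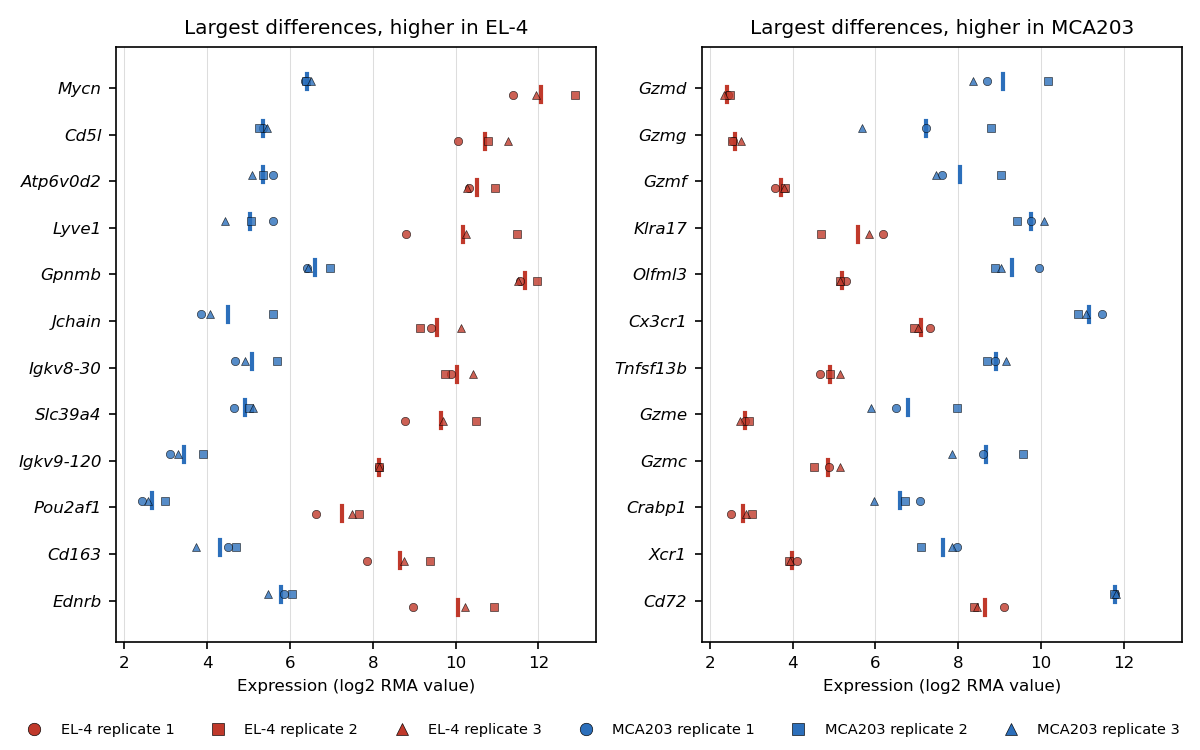
Expression (log2 RMA value, horizontal axis) of the 12 named genes with the largest difference in each direction on the 3 EL-4 arrays (red) and the 3 MCA203 arrays (blue), with symbols for replicates and a vertical bar at each group mean. The genes were drawn from calls whose groups do not overlap, so the lack of overlap follows from the choice. Gzmd shows the widest gap, 2.33 to 2.50 in EL-4 against 8.35 to 10.16 in MCA203.

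On the MCA203 side the granzymes led. Granzymes are serine proteases of cytotoxic granules, and in the mouse granzymes B to G and N lie side by side in a cluster of closely related genes. Gzmd read 2.43, 2.50 and 2.33 on the EL-4 arrays and 8.70, 10.16 and 8.35 on the MCA203 arrays, the largest difference of any named gene (-6.65 ± 0.27, adjusted p 2.06e-15). Gzmg read 2.55, 2.54 and 2.75 against 7.21, 8.78 and 5.67 (-4.61 ± 0.38). Gzmf read 3.57, 3.81 and 3.79 against 7.60, 9.03 and 7.47 (-4.31 ± 0.24). All 3 genes were highest on MCA203 replicate 2 and lowest on MCA203 replicate 3. Gzme differed by -3.94 ± 0.30 and Gzmc by -3.82 ± 0.25, each with the same order of MCA203 arrays. In the order of the cluster, Gzme, Gzmd, Gzmg, Gzmf and Gzmc were called, while Gzmn, between Gzmg and Gzmf, differed by -0.04 and Gzmb, at the end, by -0.58, neither past the test. These genes are closely related copies, the Gzme probe set is of a cross-hybridising class, and the share of each copy in the signal is uncertain.

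Promoters of called copies are shown because they are alike. The windows run from 250 bases before to 50 bases after the start in RefSeq (GRCm38.p6), 5′ to 3′ on the gene's strand, and the capitals mark the longest run of letters that the Gzmd, Gzme, Gzmf and Gzmg windows share. That run has 36 bases. It was taken from these 4 windows, so its presence in them was fixed by the choice. No window beyond these 4 held it, of 32851 promoter windows searched (0.0122%). The promoters of Gzmn and Gzmb, which were not called, were not aligned with these, so likeness was not compared between called and uncalled copies.
Gzmd, chr14:56132544-56132843, minus strand: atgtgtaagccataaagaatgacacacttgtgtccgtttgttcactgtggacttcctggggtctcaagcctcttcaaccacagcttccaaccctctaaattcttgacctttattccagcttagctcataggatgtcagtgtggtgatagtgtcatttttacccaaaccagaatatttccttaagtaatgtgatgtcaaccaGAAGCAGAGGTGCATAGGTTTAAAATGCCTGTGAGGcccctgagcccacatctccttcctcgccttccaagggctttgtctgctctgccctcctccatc
Gzmf, chr14:56211358-56211657, minus strand: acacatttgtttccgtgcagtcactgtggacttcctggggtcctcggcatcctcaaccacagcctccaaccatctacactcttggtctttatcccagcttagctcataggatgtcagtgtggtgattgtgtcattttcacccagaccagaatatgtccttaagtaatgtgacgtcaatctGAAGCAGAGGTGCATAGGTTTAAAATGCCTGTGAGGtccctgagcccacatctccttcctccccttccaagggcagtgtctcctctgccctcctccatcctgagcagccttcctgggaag
Gzmg, chr14:56159530-56159829, minus strand: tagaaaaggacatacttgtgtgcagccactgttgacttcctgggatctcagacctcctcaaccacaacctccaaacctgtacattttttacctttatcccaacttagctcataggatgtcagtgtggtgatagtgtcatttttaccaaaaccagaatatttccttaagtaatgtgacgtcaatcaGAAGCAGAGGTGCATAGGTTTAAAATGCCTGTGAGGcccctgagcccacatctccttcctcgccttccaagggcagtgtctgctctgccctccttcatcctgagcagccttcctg
The Gzmd and Gzme windows were 93.4% identical, and identity over all pairs among granzymes C to G ran from 74.6% to 93.4%. The Gzmc window lacks the run, although Gzmc was called too.

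Other genes that led on the MCA203 side lay outside the granzyme cluster. Cx3cr1, the fractalkine receptor of patrolling monocytes and tissue macrophages, read 7.31, 6.94 and 7.03 in EL-4 and 11.47, 10.89 and 11.09 in MCA203 (-4.06 ± 0.23, adjusted p 1.4e-12). Its second probe set gave -3.77. Xcr1, the chemokine receptor that marks cross-presenting dendritic cells, read 4.11, 3.92 and 3.94 against 7.98, 7.09 and 7.84 (-3.65 ± 0.29). Cd72, a lectin of B cells and macrophages, read 9.10, 8.38 and 8.45 against 11.79, 11.76 and 11.80 (-3.14 ± 0.29). The MCA203 arrays were nearly level for Cd72, with a range of values narrower than that of the EL-4 arrays. Klra17, an inhibitory Ly49 receptor, differed by -4.17 ± 0.39, the secreted glycoprotein Olfml3 by -4.09 ± 0.24 and the retinoic acid binding protein Crabp1 by -3.79 ± 0.22. Tnfsf13b, the B cell survival factor BAFF, read 4.67, 4.90 and 5.14 against 8.88, 8.68 and 9.15 (-4.0 ± 0.31). Its other two probe sets gave -1.70 and -0.17, the same direction with a smaller size.

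Healthy spleen places these levels. The title and strain of the 3 arrays used name C57BL/6, while their source name and description name BALB/c, so the strain of this reference is uncertain. In CD11b+ cells of healthy C57BL/6 spleen, Cd5l stood at 11.72 ± 0.20 and Marco at 8.75 ± 0.31 (SD, n = 3). Jchain stood at 11.00 ± 0.47. The EL-4 means of Cd5l, Marco and Jchain were lower, at 10.70, 8.24 and 9.56, and the MCA203 means far lower, at 5.34, 5.07 and 4.50. Of the other called macrophage markers of spleen, Spic and Hpgd stood at 10.46 and 11.12 there, against 7.42 and 6.01 in EL-4. Their MCA203 means were 6.26 and 4.92. Timd4 stood at 7.75 in spleen, 6.45 in EL-4 and 4.29 in MCA203, and Cd209b at 5.74, 7.60 and 5.04. Gpnmb, Atp6v0d2 and Lyve1 stood at 4.93, 4.00 and 3.84 in spleen, below both infiltrates. Cx3cr1 stood at 10.23 ± 0.18 in spleen, nearer to MCA203. Gzmd had a mean of at most 3.22 in every other group of the series, against 9.07 in MCA203, and Xcr1 one of at most 4.54, against 7.64. Of the 706 genes higher in EL-4, the spleen mean lay nearer to EL-4 for 309 (43.8%), and of the 255 higher in MCA203 for 177 (69.4%), beside 53.2% of all genes. These values are a description of levels with no test.

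**Figure D2:**
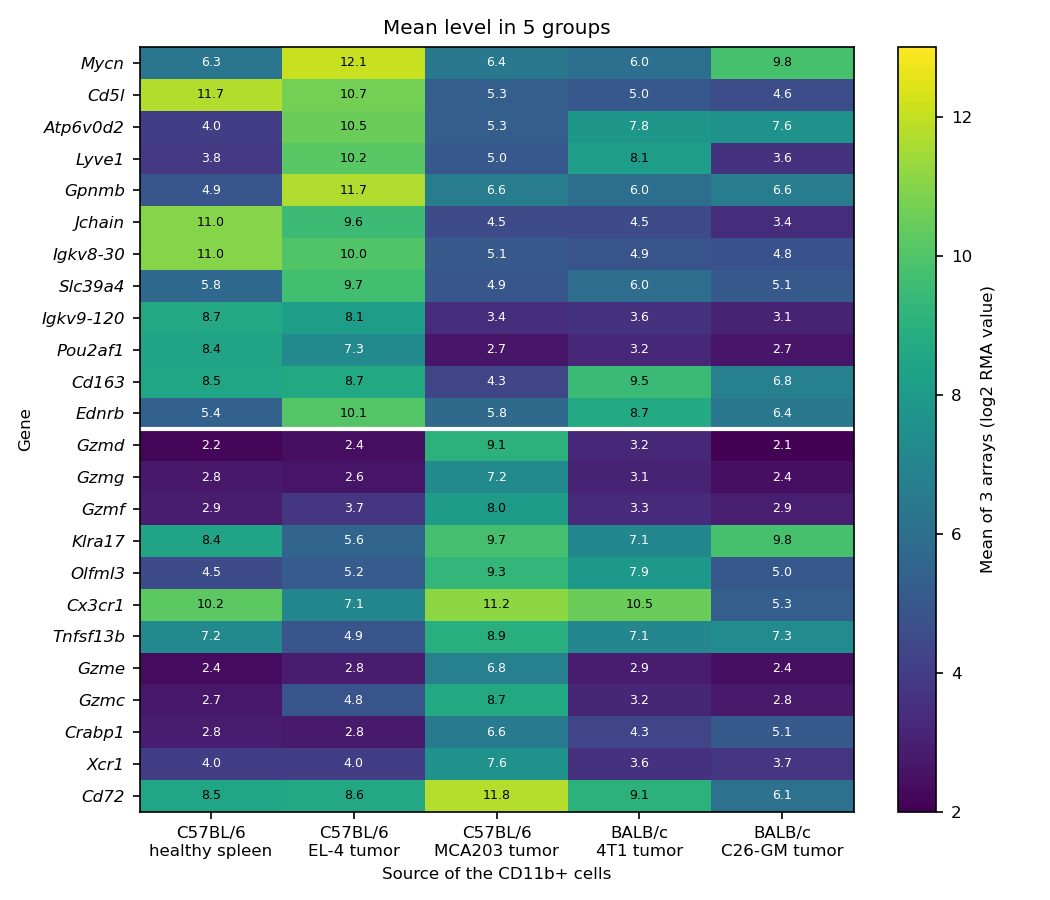
Mean level over 3 arrays (log2 RMA value, printed in each cell and given by colour) of the 12 leading genes in each direction in CD11b+ cells of healthy C57BL/6 spleen and of 4 kinds of tumor, with EL-4 leaders above the white line and MCA203 leaders below. Gzmd, Gzmg, Gzmf, Gzme and Gzmc are bright in the MCA203 column alone, while Cd5l, Jchain and Igkv8-30 are high in spleen and EL-4.

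Several genes by which myeloid cells suppress T cells were higher in EL-4. Of 20 measured suppressive effectors, 8 were higher in EL-4 and 1 in MCA203, with a median difference of 0.74. Over all genes 3.88% were called higher in EL-4 and 1.40% higher in MCA203. These shares stand beside every list count below, and a single call is not read as a result about its list. Slc7a2, a cationic amino acid transporter that imports arginine, read 10.36, 10.27 and 9.45 in EL-4 and 6.96, 7.11 and 5.71 in MCA203 (3.43 ± 0.42, adjusted p 1.23e-06), and its 3 other probe sets gave 1.46 to 2.93. Nos2, the inducible nitric oxide synthase, read 6.86, 8.24 and 7.69 against 5.08, 5.12 and 5.51 (2.36 ± 0.29, adjusted p 1.94e-06). Arg1, arginase 1, read 11.17, 12.33 and 11.43 against 10.41, 10.20 and 10.37 (1.32 ± 0.35, adjusted p 0.01). Both groups stood far above the spleen mean of 3.51 for Arg1, and without EL-4 replicate 2 the difference was 0.97 with an adjusted p of 0.0929. Hmox1, the haem-degrading oxygenase, read 10.48, 11.63 and 10.88 against 8.83, 8.65 and 8.56 (2.32 ± 0.31). Pdcd1lg2, the PD-1 ligand PD-L2, was higher by 1.75 ± 0.26 and Tgfb1, encoding an inhibitory cytokine, by 1.16 ± 0.18. Arg2, the mitochondrial arginase, was higher by 1.13 ± 0.29, and fell short of the threshold without EL-4 replicate 1 (0.66, adjusted p 0.103) or MCA203 replicate 3 (adjusted p 0.0523).

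Ido1, which degrades tryptophan, read 8.72, 4.71 and 5.61 in EL-4 and 3.91, 4.98 and 4.63 in MCA203. The difference of 1.84 ± 0.53 (adjusted p 0.0196) rests on EL-4 replicate 1, the array with the epithelial transcripts, and was 0.65 with an adjusted p of 0.184 without it. It also missed the threshold without MCA203 replicate 1 (adjusted p 0.107) and in a model of the 6 arrays alone (adjusted p 0.155). Without EL-4 replicate 1 the list had 6 genes higher in EL-4. The effector higher in MCA203 was Havcr2, the inhibitory receptor TIM-3, at 7.55, 7.74 and 7.55 against 8.80, 8.91 and 8.91 (-1.26 ± 0.25). Cd274, the PD-1 ligand PD-L1, differed by 0.74 ± 0.23 and Il10 by 0.77 ± 0.23, both with an adjusted p under the threshold (0.0309 and 0.0261) and less than a 2-fold change. Ptgs2, the prostaglandin synthase COX-2, differed by 0.53 ± 0.50, Vegfa by -0.13 ± 0.38 and Il4ra by 0.22 ± 0.31, none past the test.

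**Figure D3:**
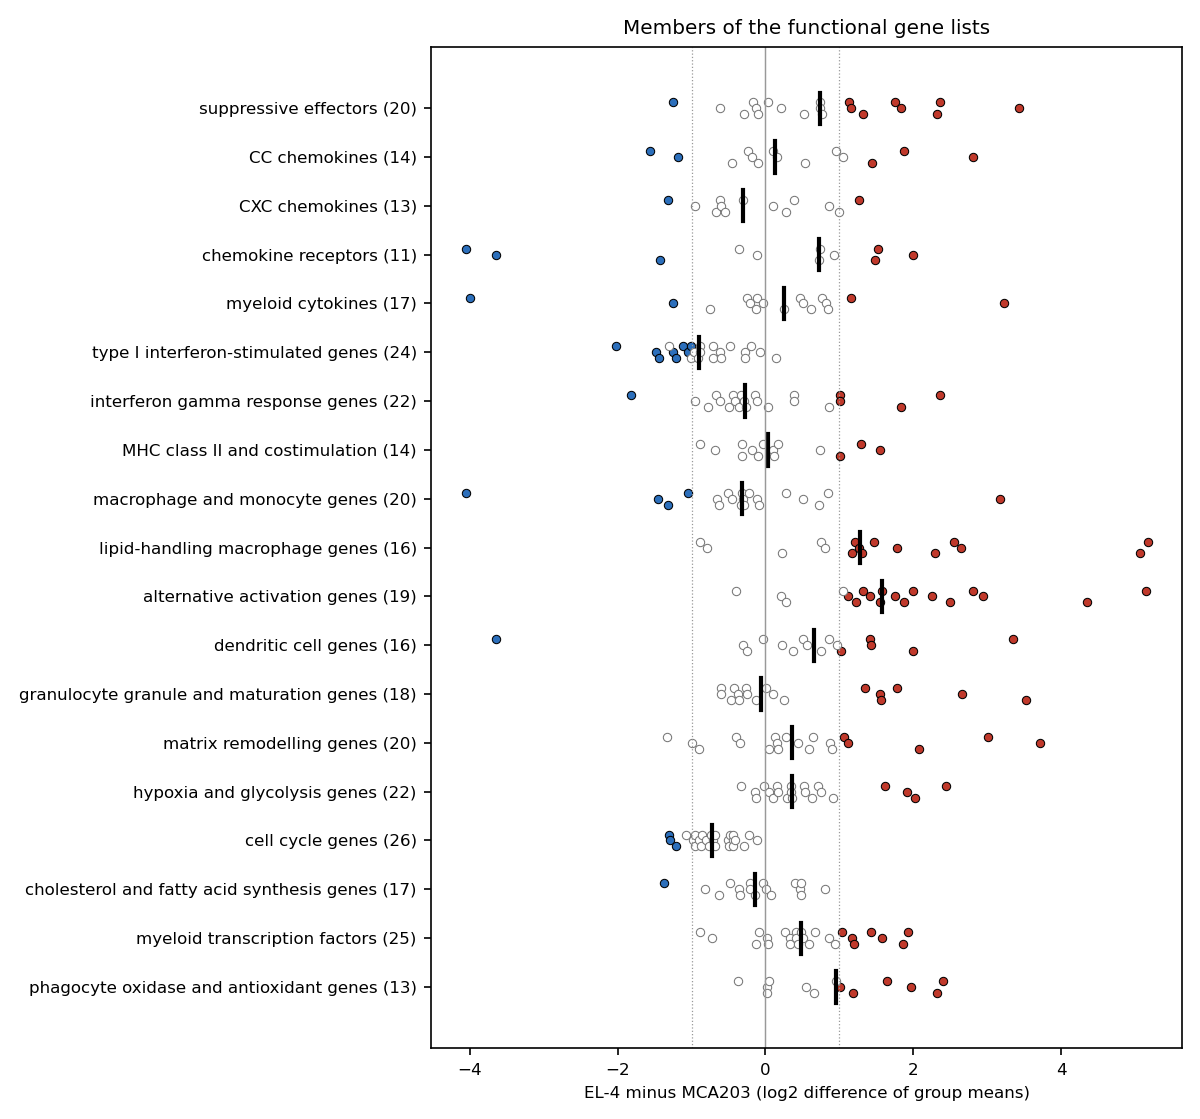
Difference EL-4 minus MCA203 (log2 scale, horizontal axis) of each measured member of the 19 functional gene lists, with the number of members in brackets. Filled points are called genes (red higher in EL-4, blue higher in MCA203), open points are not called, thick bars are list medians and dotted lines mark a 2-fold change. The lipid-handling and alternative activation lists lie mostly to the right of 1, and the interferon-stimulated and cell cycle lists almost wholly to the left of 0.

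Genes of alternative activation were the list with most calls. Of 19 measured, 15 were higher in EL-4 and none in MCA203, with a median difference of 1.58, and 13 were called without EL-4 replicate 1 or without MCA203 replicate 3. F13a1, the clotting factor XIII A chain of resident macrophages, read 11.47, 12.43 and 11.90 against 9.23, 9.13 and 8.60 (2.94 ± 0.27, adjusted p 1.49e-08). Clec10a, a galactose-binding lectin, read 10.08, 10.48 and 10.58 against 8.32, 7.85 and 7.49 (2.49 ± 0.22, adjusted p 5.01e-09). Retnla, the secreted protein Fizz1, read 10.27, 11.81 and 11.01 against 9.11, 8.96 and 8.24 (2.26 ± 0.51, adjusted p 0.00286). In each of these genes the lowest EL-4 array exceeded the highest MCA203 array. Chil3, the chitinase-like protein Ym1, differed by 1.55 ± 0.23, the lipoxygenase Alox15 by 2.00 ± 0.32 and the zinc finger factor Egr2, induced by interleukin 4, by 1.58 ± 0.26. The lectin Mgl2 (1.12 ± 0.33), the folate receptor Folr2 (1.23 ± 0.27) and Cdh1 (1.41 ± 0.47) passed as well. Cdh1 is also an epithelial marker, and read 8.56, 5.76 and 6.11 on the EL-4 arrays, highest on the array with the keratins. The part of epithelial cells in it was not tested. Each of these 3 genes lost its call when at least 1 array was left out. The values without EL-4 replicate 2 were 0.94 for Mgl2 and 0.88 for Folr2, those without MCA203 replicate 3 were 0.66 for Mgl2 and 1.05 for Cdh1, and those without EL-4 replicate 1 were 1.03 for Mgl2 and 0.54 for Cdh1. Folr2 stood at 0.98 without MCA203 replicate 2, and Cdh1 had an adjusted p of 0.0785 without MCA203 replicate 1. The mannose receptor Mrc1, a standard marker of the programme, read 10.64, 11.43 and 10.94 against 10.99, 10.67 and 10.53, overlapping values with a difference of 0.27 ± 0.31 (adjusted p 0.591). Stab1, a scavenger receptor, differed by -0.40 and was not called.

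Genes with which macrophages take up, store and digest lipid followed the same direction. Of 16 measured, 11 were higher in EL-4 and none in MCA203, with a median difference of 1.28. Fabp5, a fatty acid binding protein, read 13.19, 13.29 and 13.13 against 10.47, 11.06 and 10.11 (2.65 ± 0.28, adjusted p 1.09e-07). Cd36, the scavenger receptor for oxidised lipoprotein, read 10.09, 10.74 and 10.56 against 8.07, 8.0 and 7.66 (2.55 ± 0.35, adjusted p 8.99e-06). The groups were well apart for both genes. Fabp4, shared by macrophages and fat cells, differed by 2.29 ± 0.41 and its other probe sets by 0.76 to 2.05. Lipoprotein lipase Lpl differed by 1.77 ± 0.22, the lysosomal protease Ctsd by 1.47 ± 0.16, the tetraspanin Cd9 by 1.31 ± 0.23 and the droplet coat protein Plin2 by 1.26 ± 0.16. The lysosomal acid lipase Lipa (1.22 ± 0.27) and the cholesterol exporter Abca1 (1.17 ± 0.25) completed the called set with Gpnmb and Atp6v0d2. Trem2, a lipid-sensing receptor, differed by -0.79 and the lipid-responsive nuclear receptor Pparg by -0.89, opposite in sign to the rest and not called. The count stayed at 11 under centring on housekeeping genes, quantile normalisation, the mean of probe sets, and without EL-4 replicate 1 or MCA203 replicate 3. Without EL-4 replicate 2, 1 member was called higher in MCA203. Genes of the synthesis of cholesterol and fatty acids differed little, with 1 of 17 called higher in MCA203, beside 1.40% of all genes. Without MCA203 replicate 3, 2 were called. The call was Fdps, farnesyl diphosphate synthase (-1.37 ± 0.40, adjusted p 0.0214), which missed the threshold without any one of EL-4 replicates 2 and 3 and MCA203 replicates 1 and 2 (adjusted p 0.0595 to 0.0733).

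General markers of macrophages and monocytes divided otherwise. Of 20 measured, 1 was higher in EL-4 and 4 in MCA203, with a median difference of -0.31. The one higher in EL-4 was Marco, a scavenger receptor for bacteria on splenic and lymph node macrophages, at 7.98, 8.42 and 8.33 against 5.05, 5.08 and 5.08 (3.17 ± 0.20, adjusted p 1.14e-11). Beside Cx3cr1, the genes higher in MCA203 were the activating Fc receptors Fcgr4, at 10.85, 10.82 and 10.98 against 12.32, 12.20 and 12.52 (-1.46 ± 0.18), and Fcgr1, at 10.78, 10.47 and 11.00 against 12.17, 11.90 and 12.14 (-1.32 ± 0.20). Both activating receptors were lower on every EL-4 array than on any MCA203 array. Apolipoprotein E, Apoe, was the fourth (-1.04 ± 0.31, adjusted p 0.0216), and it missed the threshold without EL-4 replicate 1 (-0.84), MCA203 replicate 1 (-0.94) or MCA203 replicate 3 (-0.99). The F4/80 antigen Adgre1 differed by -0.30 ± 0.20, Csf1r by -0.30 and Cd68 by -0.11, none past the test.

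Chemokines draw leukocytes into tissue through receptors that differ between cell types. Of 14 CC chemokines, 3 were higher in EL-4 and 2 in MCA203, beside 3.88% and 1.40% of all genes. Their median difference was 0.13. Ccl24, eotaxin 2, which attracts eosinophils, read 8.81, 10.53 and 8.95 in EL-4 and 7.39, 6.07 and 6.39 in MCA203 (2.81 ± 0.32, adjusted p 3.45e-07). Ccl22, a ligand of the Th2 and regulatory T cell receptor CCR4, read 8.53, 8.43 and 7.56 against 5.93, 6.87 and 6.11 (1.87 ± 0.32, adjusted p 0.00014). Ccl6 differed by 1.44 ± 0.16. The monocyte attractants Ccl7 and Ccl12, ligands of CCR2, ran the other way. Ccl7 read 8.78, 9.47 and 8.68 against 10.53, 10.38 and 10.69 (-1.56 ± 0.28, adjusted p 0.000278), and Ccl12 differed by -1.18 ± 0.36 (adjusted p 0.0254). The Ccl12 call was lost without EL-4 replicate 1, EL-4 replicate 3, MCA203 replicate 1 or MCA203 replicate 2 (-1.01 to -1.20, adjusted p 0.0537 to 0.119). Ccl2 differed by -0.45 and was not called.

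Of 13 CXC chemokines, 1 was called in each direction, beside 3.88% of all genes towards EL-4 and 1.40% towards MCA203. Their median difference was -0.31. Cxcl14 was higher in MCA203 (-1.31 ± 0.27). The stromal factor Cxcl12 was higher in EL-4 by 1.27 ± 0.33, yet its other probe sets gave 0.31 and -0.43, and it missed the threshold without EL-4 replicate 1 (0.98) or MCA203 replicate 3 (1.05, adjusted p 0.076). The interferon-induced T cell attractants Cxcl9, Cxcl10 and Cxcl11 differed by -0.61, -0.66 and -0.95 and were not called. Of 11 chemokine receptors, 3 were called in each direction. Ccr7, which guides mature dendritic cells and naive T cells to lymph nodes, read 8.17, 7.98 and 7.51 against 5.40, 6.69 and 5.58 (2.00 ± 0.36). Ccr3, the eotaxin receptor of eosinophils, read 5.39, 5.46 and 4.84 against 4.27, 3.25 and 3.58 (1.53 ± 0.33), so that Ccl24 and its receptor were both higher in EL-4. The scavenging receptor Ackr3 differed by 1.49 ± 0.35. Beside Cx3cr1 and Xcr1, Cxcr6, the CXCL16 receptor of activated T and natural killer cells, was higher in MCA203, at 7.90, 7.82 and 7.78 against 9.19, 9.22 and 9.35 (-1.42 ± 0.23). Ccr2 differed by 0.73 and was not called.

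Among 17 cytokines of myeloid cells, 2 were called in each direction, beside 3.88% of all genes towards EL-4 and 1.40% towards MCA203. Il6 read 8.47, 8.91 and 7.30 in EL-4 and 4.90, 5.67 and 4.43 in MCA203 (3.23 ± 0.35, adjusted p 2.24e-07). Il1b, which encodes interleukin 1 beta, read 11.78, 11.13 and 10.33 against 12.24, 12.38 and 12.37 (-1.25 ± 0.26, adjusted p 0.00121). The MCA203 arrays were level for Il1b while EL-4 spread over more than 1 unit, and without EL-4 replicate 3 the difference was -0.88. Tgfb1 and Tnfsf13b were the other calls. Tnf differed by -0.11 and Il12b by 0.81, neither called. Ifng, the type II interferon of T and natural killer cells, read 9.37, 9.70 and 10.07 against 8.01, 8.96 and 8.81 (1.12 ± 0.24, adjusted p 0.00173), and was under 2-fold without EL-4 replicate 3 (0.94) or MCA203 replicate 1 (0.82).

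Genes induced by type I interferon were lower in EL-4 wherever they passed the test. Type I interferons act on many of their target genes through a promoter element known as the interferon-stimulated response element. Of 24 measured genes, 8 were called higher in MCA203 and none in EL-4, 23 had a negative difference, where 40.6% of all genes had a positive one, and the median was -0.90. Ifit3, which blocks viral RNA translation, read 8.25, 8.65 and 9.04 in EL-4 and 10.58, 10.72 and 10.68 in MCA203 (-2.02 ± 0.30, adjusted p 2.32e-05). Isg20, an RNA exonuclease, read 8.05, 7.63 and 7.92 against 9.22, 9.60 and 9.21 (-1.48 ± 0.23). Rsad2, or viperin, read 9.52, 9.90 and 10.13 against 11.17, 11.44 and 11.25 (-1.44 ± 0.33, adjusted p 0.00351). The groups did not overlap in any of these. Usp18, which removes ISG15 and dampens the interferon receptor, differed by -1.25 ± 0.29, Ifit2 by -1.21 ± 0.40, Ifit1 by -1.12 ± 0.34, the RNA sensor Ifih1 by -1.05 ± 0.24 and Xaf1 by -1.0 ± 0.25. The other probe set of Xaf1 gave -0.28. Mx1 differed by -1.30, and the inducing factor Irf7 by -0.71, and neither was called. The number of calls was 11 with centring on housekeeping genes, 5 without EL-4 replicate 1 or without EL-4 replicate 2, and 4 without MCA203 replicate 2. Ifit1 missed the threshold in all 3 of those fits (adjusted p 0.0807 to 0.106), as did Ifit2 (adjusted p 0.101 to 0.153). Both also missed it without MCA203 replicate 1 (adjusted p 0.0664 and 0.0815), and Ifit2 without MCA203 replicate 3 (adjusted p 0.0918). Xaf1 stood at -0.95 to -0.94 in the same 3 fits, and Ifih1 was just under 2-fold without EL-4 replicate 2 (-0.99) or MCA203 replicate 2.

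The promoter windows of Ifit3 and Ifit1 show the element of this response. Capitals mark matches to the core of that element, which is TTTC, any 2 bases and TTTC again, searched on both strands.
Ifit3, chr19:34583279-34583578, plus strand: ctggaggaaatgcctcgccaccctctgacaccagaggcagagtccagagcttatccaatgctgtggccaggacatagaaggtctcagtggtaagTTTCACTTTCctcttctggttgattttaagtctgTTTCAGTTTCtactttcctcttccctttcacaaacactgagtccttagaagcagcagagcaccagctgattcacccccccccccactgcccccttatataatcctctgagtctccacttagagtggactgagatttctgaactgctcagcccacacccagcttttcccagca
Ifit1, chr19:34640639-34640938, plus strand: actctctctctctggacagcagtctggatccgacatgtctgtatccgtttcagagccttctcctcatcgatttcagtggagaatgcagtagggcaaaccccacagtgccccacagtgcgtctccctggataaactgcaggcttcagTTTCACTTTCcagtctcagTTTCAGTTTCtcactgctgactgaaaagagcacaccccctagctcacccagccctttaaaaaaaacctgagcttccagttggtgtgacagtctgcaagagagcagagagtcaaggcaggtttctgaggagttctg
Both windows hold 2 matches. Of the 8 called genes 7 had a window, and 4 of the 7 held the core (Ifit1, Ifit3, Rsad2 and Ifih1). Of the 16 genes not called 11 had a window, and 5 held it. The core was present in 3.44% of all 32851 windows of this length. That share is per window, while a gene was counted if any of its windows held the core, and some genes had several.

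The response to interferon gamma did not share that direction as a whole. Of 22 measured genes, 4 were higher in EL-4 and 1 in MCA203, with a median difference of -0.28. Nos2 and Ido1 are given above. Socs1, a feedback inhibitor, differed by 1.01 ± 0.34 and Ciita, the master activator of MHC class II genes, by 1.01 ± 0.23. Socs1 missed the threshold without any one array other than EL-4 replicate 1 (adjusted p 0.092 to 0.17), and Ciita was under 2-fold without EL-4 replicate 1, EL-4 replicate 3 or MCA203 replicate 3 (0.94 to 0.97). In all, 2 of the list's genes were called in EL-4 with housekeeping centring, with quantile normalisation, and without EL-4 replicate 1, EL-4 replicate 3, MCA203 replicate 1 or MCA203 replicate 3. Gbp2b, a guanylate binding protein, was higher in MCA203, at 9.16, 7.87 and 9.43 against 10.57, 10.33 and 10.99 (-1.81 ± 0.31, adjusted p 0.000119). Irf8, a factor of monocyte and dendritic cell fate, differed by 0.86 ± 0.26 and was not called.

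Most antigen presentation genes were not called. Of 14 genes of MHC class II and costimulation, 3 were higher in EL-4, beside 3.88% of all genes. Their median difference was 0.04. H2-Aa, a class II chain, read 13.33, 13.26 and 13.30 against 13.70, 13.42 and 13.72 (-0.32 ± 0.26, adjusted p 0.45). H2-DMb2, which loads peptides onto class II, read 9.40, 9.24 and 9.29 against 7.69, 7.96 and 7.63 (1.55 ± 0.23), and H2-Ob, part of the complex that restrains loading in B cells, read 7.11, 6.88 and 7.20 against 5.98, 5.78 and 5.54 (1.30 ± 0.30). B cell markers, given below, were higher on the same arrays, and their part in these values was not tested. Of 16 dendritic cell genes, 5 were higher in EL-4 and 1, Xcr1, in MCA203. Cd24a, a surface sialoprotein, read 11.26, 10.34 and 10.38 against 7.83, 7.81 and 6.30 (3.34 ± 0.30). Irf4, the factor of the CD11b+ dendritic cell branch and of plasma cells, differed by 1.44 ± 0.25, the lectin Cd209a by 1.41 ± 0.30 and the antigen uptake receptor Ly75 by 1.03 ± 0.30. Ly75 missed the threshold without EL-4 replicate 1 (adjusted p 0.0537), MCA203 replicate 1 (0.90) or MCA203 replicate 3 (0.95). Batf3, the factor of the XCR1+ branch, differed by -0.24 and was not called.

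Granulocyte genes did not move as a block. Of 18 measured, 6 were higher in EL-4, beside 3.88% of all genes, and none in MCA203, and the median difference was -0.06. S100a8 read 9.27, 9.38 and 9.01 against 9.71, 9.16 and 9.52 (-0.24 ± 0.14), and S100a9 differed by -0.46 ± 0.15, neither called. Mmp9, the gelatinase of neutrophils and macrophages, read 9.14, 10.69 and 9.23 against 6.57, 6.34 and 5.58 (3.52 ± 0.42, adjusted p 1e-06). Lcn2, an iron-binding protein of neutrophils and of epithelium, read 9.67, 6.41 and 7.11 against 5.07, 5.17 and 4.97 (2.66 ± 0.44). Lactoferrin, Ltf, read 9.87, 6.21 and 7.46 against 5.97, 6.30 and 5.91 (1.79 ± 0.49, adjusted p 0.0136). Lcn2 and Ltf peaked on EL-4 replicate 1. Without that array Lcn2 differed by 1.69, still called, and Ltf by 0.78 with an adjusted p of 0.151. Ltf also missed the threshold without MCA203 replicate 3 (adjusted p 0.0548). The early granule protease Prtn3 differed by 1.56 ± 0.33 and the neutrophil surface antigen Cd177 by 1.35 ± 0.32. Mpo, Elane and Camp differed by 0.11, -0.42 and -0.26 and were not called.

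Enzymes that remodel the matrix were higher in EL-4 where they differed. Of 20 measured, 5 were called in EL-4, beside 3.88% of all genes, and the median difference was 0.36. The collagen-degrading cathepsin Ctsk read 9.75, 10.94 and 10.12 against 7.46, 6.59 and 5.63 (3.71 ± 0.36, adjusted p 3.7e-08). Mmp19 read 8.43, 8.35 and 8.34 against 5.43, 5.43 and 5.22 (3.01 ± 0.51). Mmp12, the macrophage elastase, read 11.48, 12.13 and 11.22 against 9.71, 9.70 and 9.20 (2.08 ± 0.19). These protease values did not overlap between the groups. Timp2 differed by 1.06 ± 0.17 and fibronectin, Fn1, by 1.12 ± 0.32. The other probe sets of Timp2 gave -0.33 to 1.10, and it stood at 0.55 with the mean of probe sets. Fn1 missed the threshold without EL-4 replicate 2 (0.76) or MCA203 replicate 3 (0.91), and Timp2 without EL-4 replicate 2 (0.87) or MCA203 replicate 2 (0.93). Mmp13, a collagenase, differed by -1.34 and Mmp10 by -1.0, neither called. With housekeeping centring 2 members of the list were called higher in MCA203, as were 1 or 2 without any one of the EL-4 arrays or without MCA203 replicate 3.

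Of 22 genes of hypoxia and glycolysis, 4 were higher in EL-4, beside 3.88% of all genes, and none in MCA203. Their median difference was 0.36. The lactate exporter Slc16a3 read 8.72, 10.21 and 8.89 against 6.48, 7.22 and 6.77 (2.45 ± 0.35, adjusted p 1.21e-05). Egln3, an oxygen-sensing hydroxylase, read 8.93, 9.70 and 8.67 against 6.69, 7.65 and 6.91 (2.02 ± 0.35), and the vasodilator peptide Adm read 7.17, 8.41 and 7.18 against 5.21, 6.18 and 5.62 (1.92 ± 0.31). In each of these genes replicate 2 was the highest array of its group. The phosphofructokinase Pfkl differed by 1.62 ± 0.25, with 0.87 and 0.01 on its other probe sets. Slc2a1, Ldha and Pgk1, widely used targets of hypoxia, differed by 0.10, -0.13 and 0.29 and were not called.

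Several genes of antioxidant defence were higher in EL-4. Of 13 genes of the phagocyte oxidase and of antioxidant defence, 6 were called there, with a median difference of 0.96. Slc7a11, the cystine importer, read 7.72, 8.09 and 7.66 against 5.62, 5.52 and 5.12 (2.40 ± 0.27, adjusted p 3.44e-07). Gclm, a subunit of the glutathione-making enzyme, read 8.97, 9.47 and 9.05 against 7.26, 7.42 and 6.92 (1.96 ± 0.29). Srxn1 differed by 1.65 ± 0.23 and its other probe sets by 0.02 to 1.73, Sod2 by 1.19 ± 0.13 and Txnrd1 by 1.0 ± 0.16. The other probe sets of Sod2 gave 0.32 to 1.48, and Sod2 was under 2-fold with the mean of probe sets (0.92). Txnrd1 lay at the 2-fold limit and was under it without EL-4 replicate 1 or 2 or MCA203 replicate 1 or 3 (0.94 to 0.99). Of the oxidase itself, Cybb differed by 0.05, Cyba by 0.02 and Ncf1 by 0.55, none called.

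Of 25 myeloid transcription factors, 7 were higher in EL-4 and none in MCA203, with a median difference of 0.48. Klf4, a factor of monocyte differentiation, read 10.84, 10.51 and 10.35 against 8.28, 8.98 and 8.64 (1.94 ± 0.33). The immediate early factor Egr1 read 12.38, 12.13 and 11.93 against 9.69, 10.83 and 10.33 (1.86 ± 0.41). Cebpb, a factor of emergency granulopoiesis and of suppressor cells, read 11.42, 11.70 and 11.30 against 10.30, 10.46 and 10.55 (1.04 ± 0.17). The groups did not overlap for Cebpb, and its difference was under the 2-fold limit without EL-4 replicate 2 (0.92) or MCA203 replicate 1 (0.97) and with housekeeping centring (0.95). Cebpa differed by 1.18 ± 0.21 and Bhlhe40 by 1.19 ± 0.21, the latter being 0.99 without EL-4 replicate 2.

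Genes of the cell cycle read lower in EL-4, and most were not called. All 26 measured had a negative difference, where 40.6% of all genes had a positive one, and the median was -0.72. Of the 26, 3 were called higher in MCA203, beside 1.40% of all genes. Birc5, or survivin, read 7.53, 7.72 and 7.85 against 8.96, 9.06 and 8.96 (-1.29 ± 0.21). Cdk1, the mitotic kinase, read 7.95, 7.99 and 8.06 against 9.23, 9.31 and 9.09 (-1.21 ± 0.20), and the spindle motor Kif11 differed by -1.30 ± 0.30. The other probe sets of Kif11 gave -1.12 and -0.56, and its call ended with the mean of probe sets (-0.99, adjusted p 0.0705). Mki67, the proliferation antigen, differed by -0.87 and was not called. The count was 7 with housekeeping centring, 5 with quantile normalisation and 7 without MCA203 replicate 3.

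Transcripts of cells other than macrophages and granulocytes were present in both fractions. Beside the marker counts below, 3.88% of all genes were called higher in EL-4 and 1.40% higher in MCA203. T cell markers were nearly balanced, with 3 of 21 higher in EL-4, 1 in MCA203 (2 without MCA203 replicate 1) and a median difference of 0.35, and the mean over the list ran from 7.06 to 7.26 in EL-4 and from 6.73 to 7.13 in MCA203. Cd3g, a chain of the T cell receptor complex, read 8.03, 8.60 and 8.35 in EL-4, the lymphoma of T cell origin, and 9.08, 9.50 and 9.62 in MCA203 (-1.08 ± 0.18). The call ended without EL-4 replicate 1 (-0.93) or MCA203 replicate 3 (-0.97). Cd3e differed by -0.04 and Cd3d by -0.25, neither called. Il7r, the interleukin 7 receptor, differed by 1.56 ± 0.30, Cd4 by 1.16 ± 0.20 and Lat by 1.11 ± 0.19. Lat fell under 2-fold without EL-4 replicate 2 (0.91) or MCA203 replicate 1 (0.99). The other probe set of Cd4 gave 0.65, and Cd4 was under 2-fold with the mean of probe sets (0.90).

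Markers of natural killer and cytotoxic cells were higher in MCA203 in 8 of 17, and in EL-4 in 1, Ifng, or 3 without MCA203 replicate 2. The mean over the list ran from 6.86 to 7.07 in EL-4 and from 8.07 to 8.94 in MCA203, with MCA203 replicate 2 highest, as it was for the granzymes. Gzmc, Gzmd, Gzme and Gzmf, given above, are 4 of the 8 called members and enter that mean, and the median difference over the list was -0.70. Klrk1, the activating receptor NKG2D, read 8.88, 8.37 and 8.71 against 10.09, 10.24 and 10.06 (-1.48 ± 0.33), and Klrd1, or CD94, differed by -1.39 ± 0.30. Fasl differed by -1.39 ± 0.28, with -0.38 on its other probe set, and perforin, Prf1, by -1.27 ± 0.26, with 0.05 on its other probe set. Ncr1, the defining receptor of natural killer cells, differed by -0.39 and Nkg7 by -0.70, neither called. The part of cytotoxic cells in the granzyme values was not tested.

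**Figure D4:**
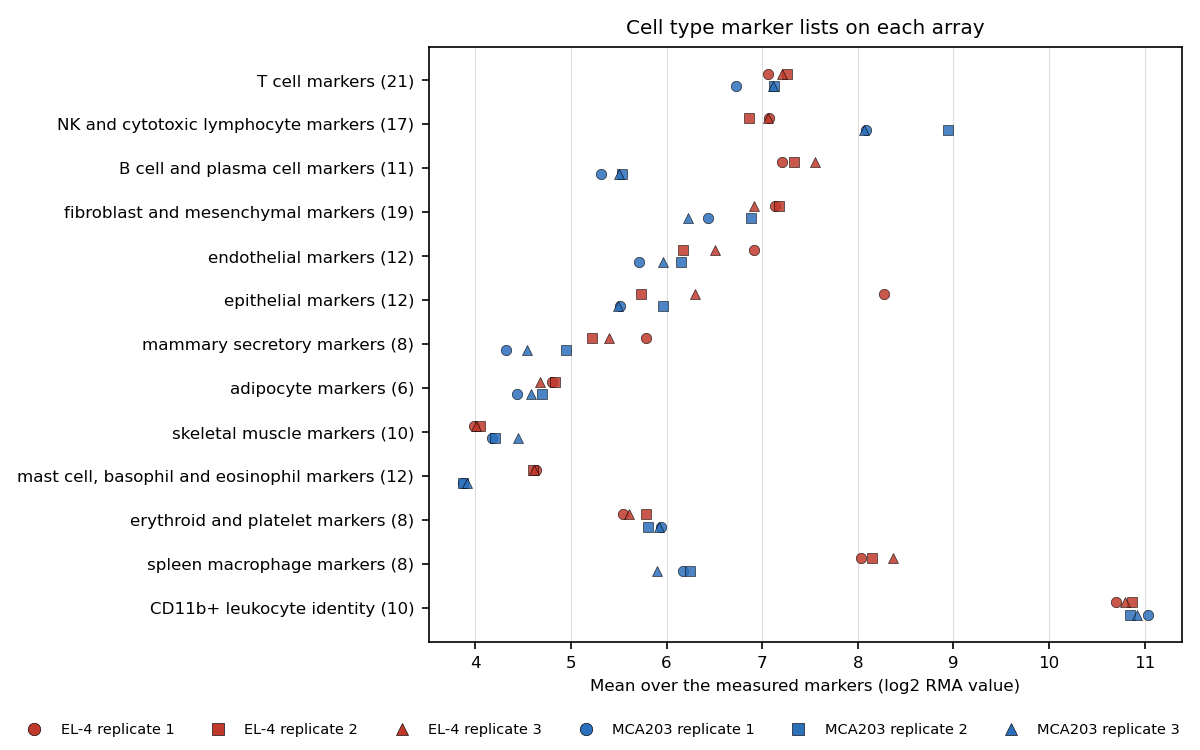
Mean log2 RMA value over the measured members of each cell type marker list (horizontal axis) on the 3 EL-4 arrays (red) and 3 MCA203 arrays (blue), with symbols for replicates and the number of markers in brackets. B cell and spleen macrophage lists separate the groups towards EL-4, the cytotoxic list towards MCA203, and the epithelial list sets EL-4 replicate 1 at 8.27 apart from all other arrays.

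Markers of B cells and plasma cells were higher in EL-4 in 6 of 11 and in MCA203 in none, with a list mean of 7.21 to 7.55 against 5.32 to 5.53. Ms4a1, the CD20 antigen, read 8.27, 8.23 and 8.47 against 3.61, 4.62 and 3.98 (4.26 ± 0.37), and the receptor chain Cd79a read 7.63, 7.96 and 8.04 against 5.07, 4.48 and 5.20 (2.96 ± 0.18). Fcer2a differed by 1.57 ± 0.24 and Cd22 by 1.21 ± 0.22. Cd79b, Ighm and Pax5 differed by -0.03, -0.13 and 0.13 and were not called. Macrophage markers of spleen were higher in EL-4 in 6 of 8, with a list mean of 8.04 to 8.37 against 5.90 to 6.25. Cd209b, a lectin of marginal zone macrophages, read 7.41, 7.55 and 7.83 against 5.13, 5.07 and 4.92 (2.56 ± 0.27), and Timd4, a receptor for dying cells, read 6.30, 6.64 and 6.40 against 3.87, 4.59 and 4.41 (2.16 ± 0.27). The red pulp factor Spic differed by 1.17 ± 0.21. Hpgd differed by 1.09 ± 0.32, but by 0.79 without EL-4 replicate 3, by 0.57 without MCA203 replicate 3 and by -0.24 on its probe set that is not prone to cross-hybridisation. The part of these cells in the leading genes Cd5l, Marco, Jchain and Pou2af1, which belong to the same lists, was not tested.

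Of 12 markers of mast cells, basophils and eosinophils, 3 were higher in EL-4, beside 3.88% of all genes. Siglecf, an eosinophil and macrophage lectin, read 7.08, 6.85 and 6.69 against 4.18, 3.92 and 3.69 (2.94 ± 0.43), and Cpa3, a mast cell and basophil protease, read 6.48, 6.87 and 6.79 against 4.09, 4.14 and 3.78 (2.71 ± 0.28). With Ccr3 these were the called markers, while the eosinophil granule protein Epx differed by -0.11 and the mast cell receptor chain Ms4a2 by -0.11. The erythroid enzyme Alas2 was higher in MCA203 (-2.08 ± 0.46), the 1 call among 8 erythroid and platelet markers, beside 1.40% of all genes. In that list 1 more, higher in EL-4, was called without EL-4 replicate 1.

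Some stromal markers were higher in EL-4. Of 19 fibroblast markers 6 were called there and 1 in MCA203, and 3 and 0 when probe sets of a gene were averaged. The proteoglycan Bgn read 8.98, 8.41 and 8.70 against 6.87, 7.70 and 6.88 (1.54 ± 0.37), and the collagen cross-linking enzyme Lox read 5.84, 7.37 and 6.63 against 5.14, 5.25 and 4.95 (1.51 ± 0.25). The other probe sets of Lox gave 1.31 and 0.004, and it stood at 0.94 with the mean of probe sets. Decorin, Dcn, differed by 1.54 ± 0.33 and by -0.17 on its second probe set. Col3a1, a fibrillar collagen, read 9.48, 10.59 and 9.94 against 10.07, 10.71 and 9.12 and did not differ past the test (0.03 ± 0.52), although its second probe set gave 1.95. The contractile genes Tagln (1.41 ± 0.32) and Acta2 (1.20 ± 0.24) were highest on EL-4 replicate 1, and stood at 0.74 and 0.77 without it. The Acta2 value comes from a probe set prone to cross-hybridisation, and its other probe sets gave 0.20 and 0.04, neither past the test. Col5a2 (1.17 ± 0.36) missed the threshold without EL-4 replicate 2 or 3 or MCA203 replicate 1 or 3 (0.85 to 1.22). Its second probe set gave 0.49. Cald1, the call in MCA203 (-1.01 ± 0.24), missed it without EL-4 replicate 3 or MCA203 replicate 1 or 2 (-0.87 to -0.99). The other probe sets of Cald1 gave -0.86 to -0.08, none past the test, and it stood at -0.46 with the mean of probe sets. Of 12 endothelial markers 3 were higher in EL-4, namely Plvap (1.70 ± 0.33), Tie1 (1.44 ± 0.30) and Cdh5 (1.19 ± 0.29), and 5 were called without EL-4 replicate 2 or without MCA203 replicate 2. Cdh5 stood at 0.99 without MCA203 replicate 3 and at 0.81 with the mean of probe sets, and its other probe set gave 0.44. No skeletal muscle marker was called of 10, with negative differences in all, and Fabp4 was the 1 adipocyte marker called of 6.

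Epithelial transcripts separated EL-4 replicate 1 from every other array. Krt19, a keratin of simple epithelium, read 11.50, 7.26 and 8.42 in EL-4 and 4.49, 6.51 and 4.48 in MCA203 (3.90 ± 0.59, adjusted p 3.08e-05). Its partner keratin Krt8 read 11.76, 7.43 and 8.78 against 8.81, 9.35 and 8.68 and was not called (0.37 ± 0.57), so MCA203 arrays carried Krt8 at levels between those of the EL-4 arrays. Krt18 read 11.68, 7.09 and 8.57 against 7.06, 8.54 and 6.91 (1.61 ± 0.60, adjusted p 0.0729). Krt18 stood at 0.33 without EL-4 replicate 1, and was called without EL-4 replicate 2 (2.62) or MCA203 replicate 2 (2.13). The luminal epithelial factor Foxa1 read 9.32, 4.79 and 6.23 against 2.92, 4.99 and 3.35 (3.03 ± 0.62), and the secreted protein Wfdc2 read 11.72, 6.60 and 7.95 against 4.97, 6.02 and 5.41 (3.29 ± 0.64). The order replicate 1, replicate 3, replicate 2 recurred in these genes among the EL-4 arrays, and MCA203 replicate 2 was the highest MCA203 array for each. Csn3, a milk casein, read 9.80, 5.70 and 6.99 against 4.13, 4.88 and 4.04 (3.15 ± 0.60), and Glycam1, a mucin of milk and of lymph node venules, read 10.81, 8.66 and 9.98 against 4.27, 8.36 and 4.45 (4.12 ± 0.62). The second probe set of Csn3 gave -0.05. Csn3 and Glycam1 were the 2 genes called of 8 mammary secretory markers. Of those 8 differences 4 were positive and 4 negative, with a median of 0.004. Without EL-4 replicate 1 the difference was 1.76 for Foxa1, 1.81 for Wfdc2 and 2.0 for Csn3, each still called, and 2.68 for Krt19 and 3.62 for Glycam1. The mean of 12 epithelial markers was 5.73 to 8.27 over the EL-4 arrays and 5.50 to 5.97 over the MCA203 arrays, and 4 were called, 2 without EL-4 replicate 1 and 7 without EL-4 replicate 2. Krt7 differed by 2.17 ± 0.50, or 1.07 without EL-4 replicate 1, and Cldn7 by 1.73 ± 0.42, or 0.90 without EL-4 replicate 1. In the model of the 6 arrays alone, Krt7, Cldn7, Foxa1 and Wfdc2 missed the threshold (adjusted p 0.0587 to 0.0853). The epithelial marker Cdh1 missed it there as well (adjusted p 0.154). Of the 961 called genes, 54 had EL-4 replicate 1 more than 2 units above the mean of the other EL-4 arrays and 3 more than 2 below. The part of epithelial cells in those differences was not tested.

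**Figure D5:**
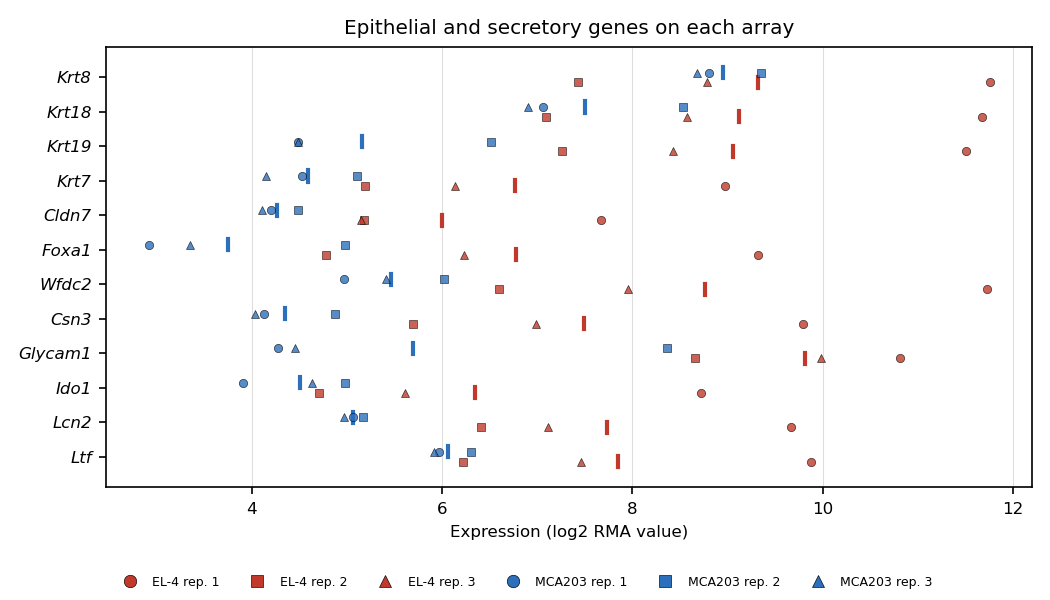
Expression (log2 RMA value, horizontal axis) of 12 epithelial and secretory genes on the 3 EL-4 arrays (red) and 3 MCA203 arrays (blue), with symbols for replicates and a vertical bar at each group mean. The genes were picked, some of them after their values were seen, and other members of the epithelial list are left out. EL-4 replicate 1 is the highest array for every gene shown, for example 11.50 for Krt19 against 7.26 and 8.42 on the other EL-4 arrays.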

How the data were processed

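Total RNA of immunomagnetically enriched CD11b+ cells was measured on 30 single-colour Affymetrix arrays in 10 groups of 3, of which the 3 EL-4 and the 3 MCA203 arrays were compared. The values are log2 expression per probe set as deposited by the authors, made with RMA per the submitters' processing notes (version not given in the sources used here). RMA puts arrays on 1 distribution before summarising probes, so a shift of most genes would be hidden. The scanner files were not used here. The number of arrays limits the precision.

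Of 45101 probe sets, 34958 carried 1 gene symbol, 932 several and 9211 none. Each gene was read from the probe set that was brightest on average across the series (18194 genes, 9012 with more than 1 probe set). All 30 arrays entered limma 3.58.1 in R 4.3.3 (lmFit and eBayes, no covariate beside group), which shares 1 estimate of the spread over 10 groups. The contrast was EL-4 minus MCA203 with Benjamini-Hochberg adjustment. A call needed an adjusted p under 0.05 and a 2-fold difference. The script was tested on simulated data. Figures were drawn with Python 3.11.15 and matplotlib 3.10.9.

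Genes were named by rule: the 12 largest non-overlapping calls each way, passing over predicted transcripts, up to 4 called members of each list, and a panel of 18 genes. Other called members of the lists, and Krt8, Krt18, Foxa1 and Wfdc2, were added after their values were seen, and members that were not called are given as examples. The members compared, the lists and the panel were chosen with earlier results of these data known. List members with no probe set of 1 symbol were not analysed here. Promoter windows are those of RefSeq for GRCm38.p6, used for sequence only.

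The replicate numbers of the titles did not pair the arrays: deviations of same-numbered arrays correlated at -0.07, -0.12 and 0.11. Alternatives tried were the 6 arrays alone, 2 scalings, array weights, a filter on low values, 3 other choices of probe set, another variance prior, 3 thresholds, a replicate block and leaving out each array. Chosen after seeing the data were the block within the 6 arrays and a model without bone marrow arrays.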

Additional observations from a re-analysis of the deposited data

How the results depend on the processing

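The number of called genes, 961 with 706 higher in EL-4 and 255 higher in MCA203, moved most with the threshold. With no minimum fold it was 2731 (1590 and 1141), and with a minimum fold of 4 it was 188 (155 and 33). Leaving out each array in turn gave 867 to 1041 calls, 588 to 787 higher in EL-4 and 234 to 279 higher in MCA203. All other alternatives gave 771 to 984 calls, the lowest with the mean of probe sets. With the replicate number as a block, which the arrays' deviations do not bear out as a pairing, 958 genes were called, and Cdh1 was the 1 named gene to lose its call.

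Of the 108 called genes named by rule, 82 kept the call under all alternatives other than thresholds and 26 lost it under at least 1. The sign turned for Igkv9-120 (-0.53, adjusted p 0.0514) and Hpgd (-0.24, adjusted p 0.617) when probe sets prone to cross-hybridisation were left out, which reads both genes from other probe sets. With 3 arrays a group and unknown purity, differences near 2-fold were the least stable. For genes with several probe sets a difference may belong to 1 transcript form or to cross-hybridisation, which was not tested.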

Other observations

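Other called genes outside the lists, picked after their values were seen, also separated the infiltrates. Saa3, an acute phase protein that macrophages make, read 9.87, 10.66 and 10.77 on the EL-4 arrays and 7.62, 6.64 and 5.85 on the MCA203 arrays (3.73 ± 0.35, adjusted p 1.91e-08). Coagulation factor VII, F7, read 9.26, 9.91 and 9.11 against 5.45, 5.93 and 5.70 (3.73 ± 0.24, adjusted p 1.58e-11). Both groups were apart for these genes, as they were for the light chain segments Igkv6-14 (3.98 ± 0.30) and Iglv1 (3.51 ± 0.38, but 0.70 on a probe set not prone to cross-hybridisation). Hmga2, a chromatin protein of embryonic and transformed cells, read 4.75, 4.78 and 5.14 in EL-4 and 7.83, 8.31 and 7.46 in MCA203 (-2.98 ± 0.22, adjusted p 2.1e-10), with -4.28 to -0.37 on its other probe sets.

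Vsig4, a complement receptor of resident macrophages, read 5.01 on EL-4 replicate 1, close to the MCA203 values of 4.73, 4.57 and 4.62, and 7.46 and 7.26 on the other EL-4 arrays (1.94 ± 0.43). Gpx3, a secreted glutathione peroxidase, read 12.14, 8.99 and 9.02 against 6.71, 7.12 and 6.26 (3.35 ± 0.44). EL-4 replicate 1 was thus the lowest EL-4 array for Vsig4 and the highest for Gpx3. Pgr, the progesterone receptor, read 8.45, 3.84 and 5.20 against 3.31, 4.45 and 3.55 (2.06 ± 0.62), and 0.75 with an adjusted p of 0.245 without EL-4 replicate 1. Its other probe sets gave 0.12 and -0.09, neither past the test.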
